A study of Mus musculus with 3 samples.

Results

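The extracellular matrix of the embryonic ureter was examined through 44 genes that encode its parts other than collagen: adhesive glycoproteins, proteoglycans, elastic fibre proteins and the enzymes that crosslink them. The genes were taken from a list of names and were not filtered by value. That list was chosen with earlier results of these data known. A gene counted as measured when at least 1 probe set on the array was annotated to that gene alone, which held for 42 of the 44, and among 18194 genes measured in all. Its level was read from the probe set with the highest mean log2(signal + 1). Efemp2 had no probe set of its own, and Loxl2 was named only together with Gm21451.

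Ureters were dissected at embryonic day 15 (Theiler stage 23) from wild-type embryos of the FVB/N strain, over the length between renal pelvis and bladder. They form 1 group of 3, replicates 3, 8 and 9, whose sex is given as unknown, and there was no second group. RNA went through 2 rounds of amplification before hybridisation to 1-colour Affymetrix Mouse Genome 430 2.0 arrays. The samples were not pooled, but whether they came from separate embryos or litters is not given in the sources used here, so the spread between them may be technical. In what follows, 3 signals in a row belong to replicates 3, 8 and 9 in that order, an SD is over these 3 samples, and the range of a gene is its highest minus its lowest log2(signal + 1). With 1 group there is no comparison to test, and all counts and levels are descriptions. Probe sets differ in brightness for reasons other than transcript abundance, so levels are compared between samples and with background, not between genes.

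In connective tissue, cells secrete fibronectin and collagen as a scaffold, and small leucine-rich proteoglycans bind collagen and govern the width of its fibrils. Elastic fibres are built by laying tropoelastin onto fibrillin microfibrils with the help of fibulins, and lysyl oxidases then join elastin and collagen chains through their lysines. Latent TGF-beta binding proteins tie stored TGF-beta to the same microfibrils, and hyaluronan with versican makes a loose, hydrated matrix typical of embryonic mesenchyme. The ureter wall holds an inner mesenchymal layer beneath the epithelium, a smooth muscle coat and an outer fibrous layer.

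Of the 42 measured genes, 37 were above background on all 3 arrays, against 59.1% of all named genes. Background was set at the 95th percentile of a reference list (53 measured genes known from retina, testis, pancreas and other distant organs), which gave signals of 235, 269 and 354. The other 5, Tnxb, Prelp, Ltbp2, Loxl4 and Acan, exceeded it on 1 array each. Just inside the limit were Ltbp4 (378, 481 and 622) and Aspn (919, 401 and 398), and just outside was Ltbp2 (155, 230 and 364). In a bulk sample, fewer cells of a type and less RNA per cell cannot be told apart.

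**Figure D1:**
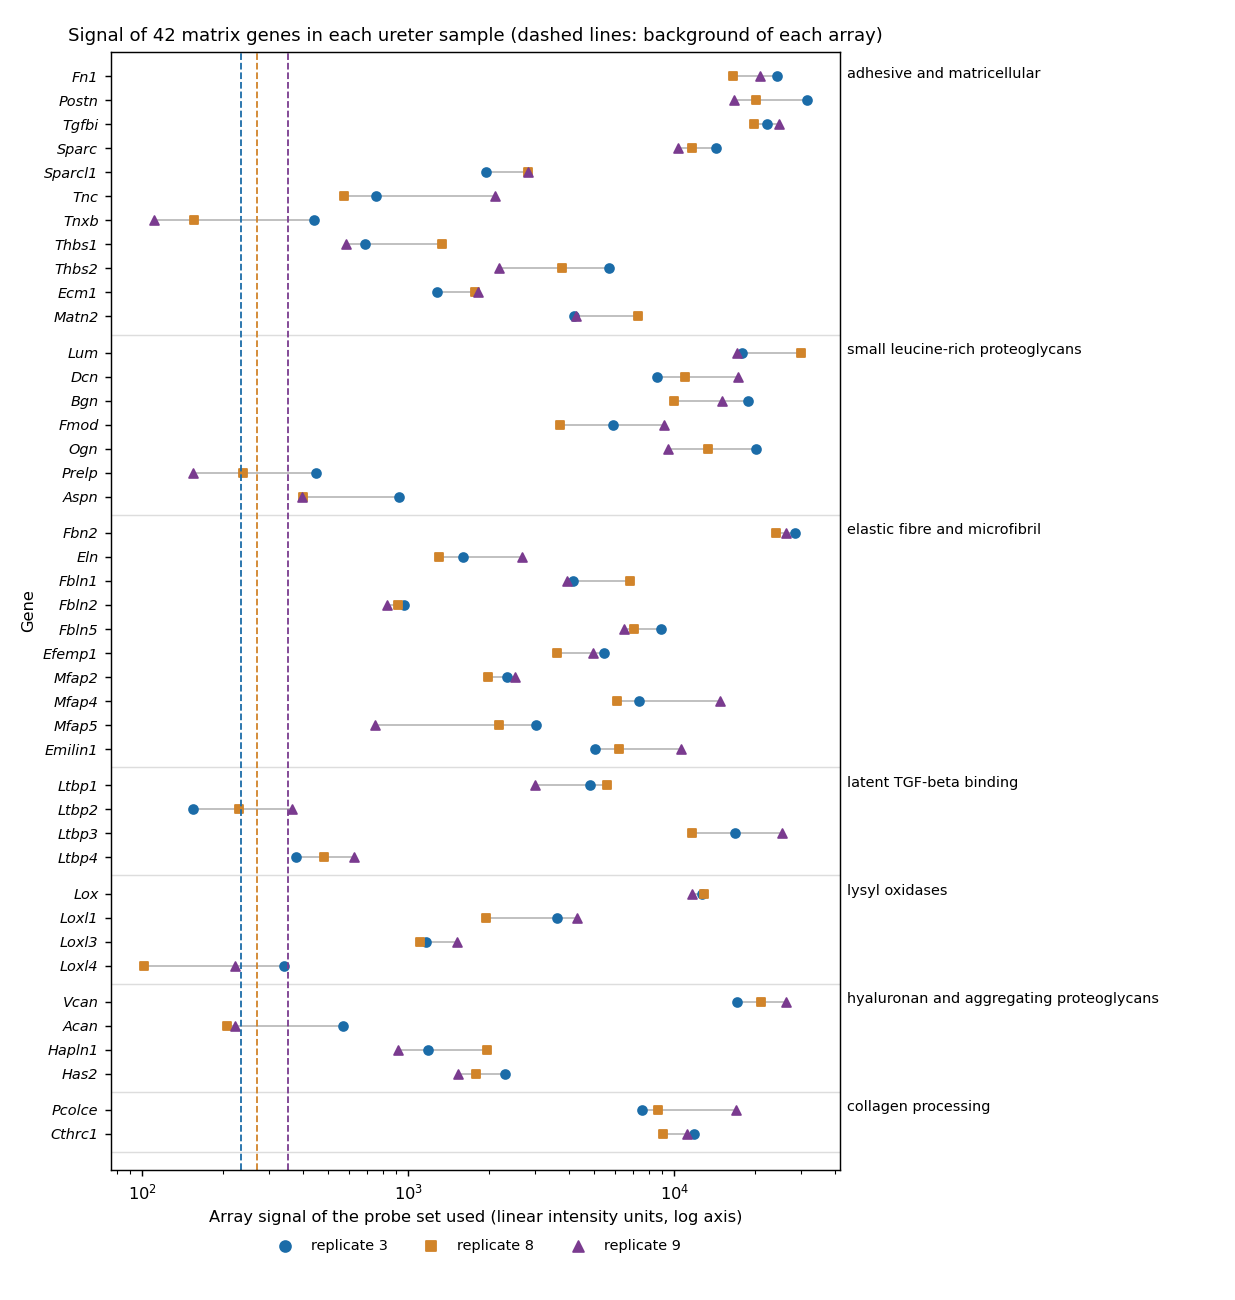
Array signal (linear units on a log axis) of the probe set used for each of 42 matrix genes, 1 point per ureter sample and a grey line from lowest to highest, with genes grouped by role. Dashed lines are the background of each array (235, 269 and 354), and 37 genes lie above it in every sample.

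Several small leucine-rich proteoglycan genes lie in runs of adjacent genes in the mouse genome, and neighbours differed in whether they gave signal. On chromosome 13, Ecm2, Aspn, Omd and Ogn are 4 adjacent protein-coding genes. Of these, Ogn, which encodes osteoglycin, and Aspn, which encodes asporin, were above background on every array, whereas the osteomodulin gene Omd (64, 12 and 6.8) and Ecm2 (48, 7.6 and 8.3) were below it on every array. The 250 bases before the annotated start of each are shown to set the pair with signal beside the pair without it, from RefSeq promoters of build GRCm38.p6, all on the plus strand, with Ecm2 at chr13:49504560-49504809, Aspn at chr13:49544193-49544442, Omd at chr13:49582212-49582461 and Ogn at chr13:49607765-49608014. Capitals mark TATAAA, the core of the TATA box, and GGGCGG, the core of a GC box, searched on both strands (as TTTATA and CCGCCC on the other).
Ecm2: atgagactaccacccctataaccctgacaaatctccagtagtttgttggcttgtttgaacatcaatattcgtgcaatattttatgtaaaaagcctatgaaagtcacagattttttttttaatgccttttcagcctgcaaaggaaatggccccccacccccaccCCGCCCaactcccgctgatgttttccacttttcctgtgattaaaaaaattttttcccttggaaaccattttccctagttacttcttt
Aspn: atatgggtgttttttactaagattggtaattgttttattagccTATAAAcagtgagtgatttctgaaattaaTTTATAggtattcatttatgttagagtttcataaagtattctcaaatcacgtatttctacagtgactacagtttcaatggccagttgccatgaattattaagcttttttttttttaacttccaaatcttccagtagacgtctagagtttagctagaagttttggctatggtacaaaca
Omd: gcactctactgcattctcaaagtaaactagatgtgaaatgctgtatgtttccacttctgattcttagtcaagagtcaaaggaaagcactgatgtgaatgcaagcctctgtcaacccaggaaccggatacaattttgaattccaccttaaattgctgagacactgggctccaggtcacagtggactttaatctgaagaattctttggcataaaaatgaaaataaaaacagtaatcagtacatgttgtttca
Ogn: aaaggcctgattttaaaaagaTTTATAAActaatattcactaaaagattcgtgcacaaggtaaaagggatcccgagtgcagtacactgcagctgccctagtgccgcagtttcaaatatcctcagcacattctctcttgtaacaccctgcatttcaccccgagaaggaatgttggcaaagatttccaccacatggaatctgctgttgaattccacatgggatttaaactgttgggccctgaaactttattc

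The Aspn sequence held TATAAA 207 bases before the start and its reverse at 178 bases. In Ogn the 2 orientations overlapped at 229 and 227 bases, so that 1 stretch of letters matched both. Ecm2 held 1 GC box core, 87 bases before the start, and Omd held neither motif. None of the TATAAA matches lay 35 to 26 bases before the start, so they are not shown to be TATA boxes. TATAAA was present in 12.4% of all 32851 promoters in the table and GGGCGG in 32.7%, over the same 250 bases and both strands. Among members, 28 had 38 promoters in the table, of which 7 held TATAAA and 21 held GGGCGG. A match is a run of letters, not a binding site.

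Ogn had signals of 20197, 13416 and 9471, a mean of 14361 ± 5426 (SD, n = 3). Its other probe set gave 2100, 1602 and 1118. Both probe sets were highest in replicate 3 and lowest in replicate 9. Aspn, at 919, 401 and 398, was likewise highest in replicate 3, and in replicates 8 and 9 it lay near the limit of background. The second probe set of Aspn, at 288, 248 and 114, exceeded background in replicate 3 alone.

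A second run of 4 adjacent genes, on chromosome 10, is Dcn, Lum, Kera and Epyc. The decorin gene Dcn (8590, 10980 and 17368) and the lumican gene Lum (18008, 29913 and 17109), both encoding proteoglycans that bind fibrillar collagen, were above background on every array. They did not have the same pattern with these probe sets, since Dcn was highest in replicate 9 and Lum in replicate 8. The second Dcn probe set (734, 263 and 605), above background on 2 arrays, was highest in replicate 3. The keratocan gene Kera (275, 223 and 261) exceeded background on 1 array, and the epiphycan gene Epyc (133, 140 and 197) on none. On chromosome 1, Optc, Prelp and Fmod are 3 adjacent genes. The fibromodulin gene Fmod, with 5858, 3697 and 9127, was highest in replicate 9, and 4 of its other 5 probe sets had the same order over the samples. Prelp (448, 239 and 155) was above background in replicate 3 only and the opticin gene Optc (134, 105 and 24) in no sample.

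The biglycan gene Bgn, on the X chromosome, had signals of 18959, 9983 and 15133 and was lowest in replicate 8 with each of its 3 probe sets. In all, 6 of the 7 small leucine-rich proteoglycan members were above background, and their median range was 1.05. Of 9 measured genes of the family that are not members, 1 was: Podn, the podocan gene, at 768, 574 and 586. The 6 below background on every array were Ecm2, Omd, Epyc, Optc, Chad and Nyx.

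Adhesive and matricellular glycoproteins, which link cells to matrix or tune that contact, were above background for 10 of 11 members. Fn1, the fibronectin gene, had signals of 24303, 16562 and 20891 (20586 ± 3879, SD, n = 3). Postn, which encodes the matricellular protein periostin of collagen-rich connective tissue, had 31401, 20227 and 16740. Tgfbi, a periostin relative induced by TGF-beta, had 22271, 19878 and 24613. Fn1 and Postn were highest in replicate 3, and Tgfbi differed little between samples (range 0.31).

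Sparc, which encodes a collagen-binding glycoprotein also called osteonectin, had signals of 14306, 11596 and 10307, and its relative Sparcl1 had 1962, 2818 and 2819. Their orders differed with these probe sets: Sparc was highest in replicate 3 and Sparcl1 was lowest there. Another Sparc probe set above background (2336, 3635 and 11262) was lowest in replicate 3, as Sparcl1 was. The thrombospondin genes Thbs1 and Thbs2 differed as well. Thbs2 had signals of 5691, 3761 and 2184, and all 3 of its probe sets were highest in replicate 3, whereas Thbs1 (684, 1335 and 584) was highest in replicate 8. The second Thbs1 probe set did not share that pattern (236, 313 and 816), while one shared with the gene Pald1 did (2139, 5251 and 2480).

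Among the tenascins, Tnc, the gene of the hexameric glycoprotein tenascin-C found around condensing and remodelling mesenchyme, had 752, 570 and 2118. It was lowest in replicate 8 and stood highest in replicate 9, with a range of 1.89, the second largest among the 37 genes above background. Tnxb, the tenascin-X gene, had 441, 156 and 110 and was above background in replicate 3 only. Matn2, which encodes the adaptor matrilin-2, was highest in replicate 8 with its main probe set (4198, 7296 and 4255) and with its other one (1874, 4459 and 1765). Ecm1, whose product binds other matrix proteins, had 1277, 1782 and 1832 and was lowest in replicate 3.

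Every measured member of the elastic fibre and microfibril role, 10 of 10, was above background. Fbn2, the gene of fibrillin-2, the fibrillin of embryonic microfibrils, had signals of 28370, 24034 and 26237 (26213 ± 2168, SD, n = 3). Eln, the tropoelastin gene, had 1606, 1300 and 2679 with a range of 1.04. Fbn2 differed little between samples with this probe set (range 0.24), whereas Eln was highest in replicate 9. The second Eln probe set was below background in every sample (31, 21 and 40).

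Fibulins are glycoproteins of elastic fibres and basement membranes, and fibulin-5 (Fbln5) and fibulin-3 (Efemp1) are of the short kind. Fbln5, which brings tropoelastin to microfibrils, had signals of 8911, 7069 and 6457. Efemp1 had 5449, 3619 and 4954. Both were highest in replicate 3. The fibulin-1 gene Fbln1, at 4157, 6776 and 3929, was instead highest in replicate 8, as it was with its second probe set above background (2926, 3829 and 3265). Fbln2, the fibulin-2 gene, varied less than these (965, 916 and 831, range 0.22).

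Microfibril-associated proteins gave opposed patterns. Mfap4, which encodes a fibrinogen-related protein of elastic fibres, had signals of 7349, 6098 and 14816 and was highest in replicate 9. Mfap5, which encodes the microfibril-associated glycoprotein MAGP-2, had 3006, 2192 and 751 and was lowest there. With a range of 2.00 it varied most of the 37 genes, and its second probe set had the same order (1526, 751 and 490). Its relative Mfap2, the MAGP-1 gene, was nearly level with its main probe set (2350, 1990 and 2518). The second Mfap2 probe set was less even (range 1.24) and was also highest in replicate 9. Emilin1, the gene of an elastin-associated glycoprotein, had 5036, 6203 and 10597, highest in replicate 9.

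Of 4 genes of latent TGF-beta binding proteins, 3 were above background. Ltbp3 had signals of 16844, 11664 and 25342, and its other probe set above background (3549, 2326 and 3970) had the same order. Ltbp1 had 4818, 5556 and 2998 and was lowest in replicate 9, where Ltbp3 was highest. Ltbp4 was nearer to background in every sample (378, 481 and 622), and Ltbp2 exceeded it in replicate 9 only (155, 230 and 364). The proteins hold the latent growth factor in the matrix, Ltbp2 excepted, which does not bind it. Of the ligand genes themselves, Tgfb2 (2236, 1914 and 7809) and Tgfb3 (3924, 3627 and 4717) were above background and Tgfb1 was not (95, 99 and 188). In the list of TGF-beta ligand and activation genes, 8 of 11 were above background, among them the receptor genes Tgfbr1, Tgfbr2 and Tgfbr3 and the integrin gene Itgav (24446, 19008 and 23966), while Itgb6 and Itgb8, partners of that integrin in TGF-beta activation, were below it on every array.

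Lysyl oxidases are copper enzymes that oxidise lysine side chains so that collagen and elastin molecules join. Lox had signals of 12732, 12890 and 11663 (12428 ± 668, SD, n = 3), and its range of 0.14 was the smallest of the 37 genes. Its second probe set above background, dimmer and at 1081, 584 and 744, was less even. Loxl1, which acts on elastic fibres, had 3611, 1956 and 4288 and was lowest in replicate 8. Loxl3 had 1166, 1108 and 1522. Loxl4 (342, 102 and 222) was above background in replicate 3 only. The probe sets named for both Loxl2 and Gm21451 gave 2850, 1416 and 3312 and, for the other, 313, 153 and 294, and these cannot be given to 1 of the genes.

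The copper transporter gene Atp7a, which supplies copper to these enzymes, had signals of 8603, 6689 and 7134. Procollagen processing was represented by Pcolce, whose product enhances the cleavage of procollagen. Grouped with it was Cthrc1, which encodes a secreted collagen triple helix repeat protein. Pcolce had 7554, 8692 and 17011 and stood higher in replicate 9. Its second probe set did not (2066, 1951 and 1843). Cthrc1 was nearly level at 11814, 9076 and 11101.

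Vcan, the gene of versican, the large proteoglycan that binds hyaluronan in embryonic mesenchyme, had signals of 17181, 21189 and 26283. Has2, the main hyaluronan synthase gene of the embryo, had 2308, 1790 and 1534. Vcan was highest in replicate 9 and Has2 in replicate 3. Hapln1, whose product links proteoglycan to hyaluronan and whose gene adjoins Vcan on chromosome 13, had 1188, 1975 and 916, highest in replicate 8. Acan, the gene of the cartilage proteoglycan aggrecan, was above background in replicate 3 only (566, 209 and 224), and the adjoining link protein gene Hapln3 (373, 375 and 337) was above it in 2 samples. Of the other hyaluronan and aggregating proteoglycan genes, 4 of 15 were above background: Hyal2, Cd44, Hmmr and Lyve1. The brain proteoglycan genes Bcan and Ncan and the synthase genes Has1 and Has3 were below it on every array.

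Hapln1 and Acan are also genes of cartilage. Of 8 cartilage markers, 2 were above background, Col9a1 and Sox9, while Col9a2, Col11a2 and Matn3 were below it in every sample, Col2a1 exceeded it in 2 samples, and Matn1 and Cnmd in 1 each. Their summed signal was 6246, 9450 and 5984, and most of it came from Col9a1 (4887, 7552 and 4433). Hapln1, Col9a1 and Sox9 (383, 894 and 424) were highest in replicate 8, whereas Acan, Col2a1 (281, 188 and 396) and Col11a2 (162, 37 and 133) were lowest there. The part of cartilage cells in the Hapln1 and Acan signals was not tested.

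**Figure D2:**
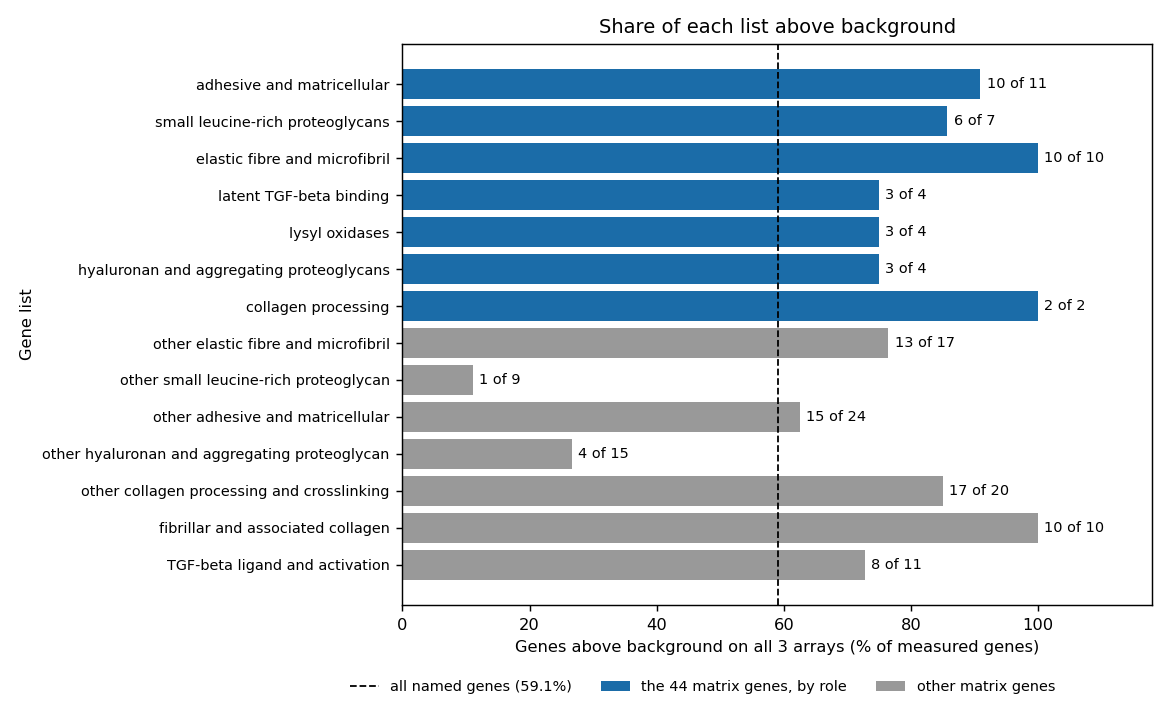
Share of measured genes above background on all 3 arrays (percent, bars from 0, with counts), for the matrix genes by role in blue and for other matrix lists in grey. The dashed line is the share of all named genes, 59.1%, and the other small leucine-rich proteoglycan genes (1 of 9) and other hyaluronan genes (4 of 15) fall below it.

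Genes that act beside these members were counted in the same way. Over 7 lists, 68 of 106 measured genes (64.2%) were above background, close to the 59.1% of all named genes. All 10 fibrillar and associated collagen genes were, including Col3a1 (59549, 46113 and 60603) and Col6a2 (24314, 16296 and 31451), as were 17 of 20 other genes of collagen processing and crosslinking. The latter included the disulfide isomerase gene P4hb, a subunit of the enzyme that hydroxylates collagen prolines (37528, 32798 and 37827), the collagen chaperone gene Serpinh1 (12863, 13378 and 15179) and the transglutaminase gene Tgm2 (29467, 24188 and 33836). The exceptions were P4ha3, Tll1 and Tll2.

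Further elastic fibre and microfibril genes were above background for 13 of 17, with Mfap3 at 5451, 4417 and 4730 and Emilin3 at 2677, 6322 and 4500, and Adamtsl2 and Adamtsl5 were below it on every array. For other adhesive and matricellular genes the count was 15 of 24. Fstl1, which encodes a Sparc-related protein, was level at 30391, 31707 and 32576, and the matricellular gene Ccn2 had 3544, 2879 and 2213. Vtn, the vitronectin gene, had 8389, 2729 and 2799, highest in replicate 3. Tnr and Tnn, the remaining tenascin genes, were below background on every array, and Comp, a thrombospondin gene of cartilage and tendon, exceeded it on 1 array.

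The spread between samples was described next. Among the 37 members above background, 15 had a range of at least 1, a difference of 2-fold between lowest and highest sample, against 15.9% of all 10749 named genes above background. The median range was 0.81 for the members and 0.55 for all genes. By role, 4 of 6 small leucine-rich proteoglycan genes reached that range, 4 of 10 elastic fibre genes, 3 of 10 adhesive genes, and 1 each of the other 4 roles. Without replicate 9, however, 1 member (Aspn) reached it, against 7.18% of all genes. Without replicate 3 the count was 9 against 7.10%, and without replicate 8 it was 9 against 8.81%, so that the count at this limit rests on replicate 9. The median range stayed wider for the members than for all genes whichever sample was left out: 0.40 against 0.30 without replicate 9, 0.50 against 0.36 without replicate 3 and 0.52 against 0.34 without replicate 8.

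Replicate 9 was the sample with the highest signal for 16 members, replicate 3 for 14 and replicate 8 for 7, which is 43.2%, 37.8% and 18.9% of the 37. Over all genes above background the shares were 32.0%, 33.2% and 34.8%. The 16 members highest in replicate 9 were Tgfbi, Tnc, Fmod, Eln, Mfap2, Mfap4, Ltbp3, Loxl1, Loxl3, Sparcl1, Ecm1, Dcn, Emilin1, Ltbp4, Vcan and Pcolce. Sparcl1 was all but equal in replicates 8 and 9 (2818 and 2819). The highest sample also depended on the probe set for 8 of 17 members with several above background. The elastic fibre genes were divided: Eln, Mfap2, Mfap4 and Emilin1, 4 of 10, were highest in replicate 9, while Fbn2, Efemp1, Fbln2, Fbln5 and Mfap5 were highest in replicate 3 and Fbln1 in replicate 8. Of the lysyl oxidase genes, Loxl1 and Loxl3 were highest in replicate 9, and Lox, which differed little, was lowest there. The members' median deviation from their 3-sample mean (log2), taken relative to the median of all genes, was 0.00, -0.12 and 0.09. The deviation in replicate 9 did not keep its sign without replicate 8 (-0.023).

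**Figure D3:**
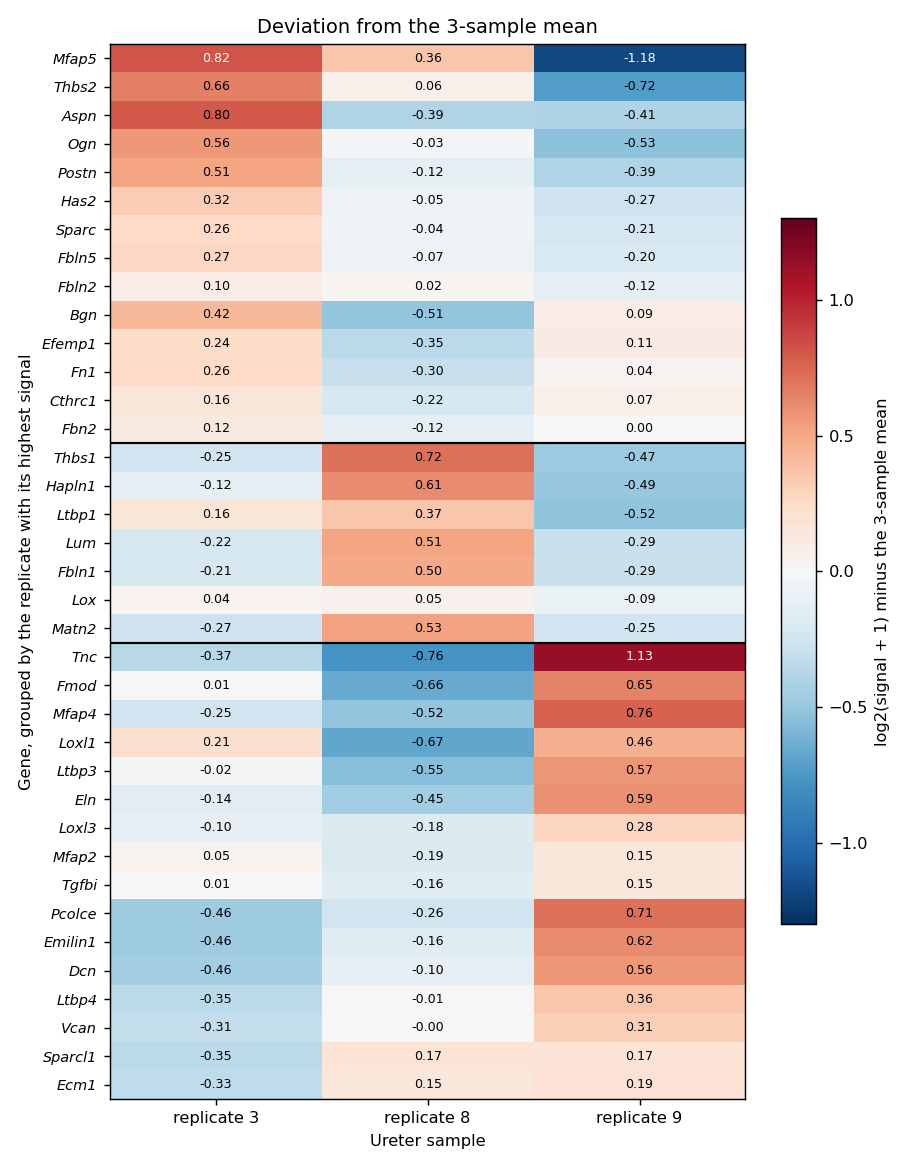
Deviation of each sample's log2(signal + 1) from the 3-sample mean for the 37 matrix genes above background, red above and blue below, grouped by the sample with the highest signal. Replicate 3 leads 14 genes, replicate 8 leads 7 and replicate 9 leads 16, and Mfap5 and Tnc vary most.

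The 10 collagen genes varied less: none had a range of at least 1, and their median range was 0.52. Their median deviation relative to all genes was 0.06, -0.26 and 0.22, so that as a list they were lowest in replicate 8 and highest in replicate 9. Col1a1 (12553, 11956 and 11112) and Col14a1 (17597, 17654 and 13810) were instead lowest in replicate 9. The other collagen genes had the pattern of the list. Among the 17 collagen processing genes above background the median range was 0.38.

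Probe sets of the same gene did not always show the same difference between samples, and neither did control probe sets for the ends of a transcript. For beta-actin the signal at the 3′ end over that at the 5′ end was 7.45 in replicate 3 and 6.50 in replicate 8, and lower in replicate 9 (49451 over 12348). For pyruvate carboxylase the ratios were 10.5, 5.95 and 2.65, also lowest in replicate 9. The transferrin receptor ratio was lowest in replicate 9 as well (7.67, 9.57 and 7.21), and that of Gapdh was lowest in replicate 8 (18.9, 15.1 and 16.4). Other probe sets of several members were highest in replicate 9 by more than the one used for the gene. For Fbn2 these signals were 789, 1408 and 7456, a range of 3.24, while the main probe set had a range of 0.24. For Sparc they were 2336, 3635 and 11262 (range 2.27 against 0.47), the opposite order to the main probe set. Vcan had 2 more such probe sets, 3010, 6299 and 11156 in one and 1968, 4616 and 11178 in the other (ranges 1.89 and 2.51 against 0.61). The second Fn1 probe set was above background in replicate 9 only (12, 110 and 489). Others went the other way. The second probe sets of Pcolce (2066, 1951 and 1843) and Dcn (734, 263 and 605) and 1 of Fmod (1160, 902 and 1137) were highest in replicate 3. The main probe sets of these genes were highest in replicate 9. The positions of these probe sets along the transcripts were not analysed here, and the part of transcript coverage in the members' differences was not tested.

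**Figure D4:**
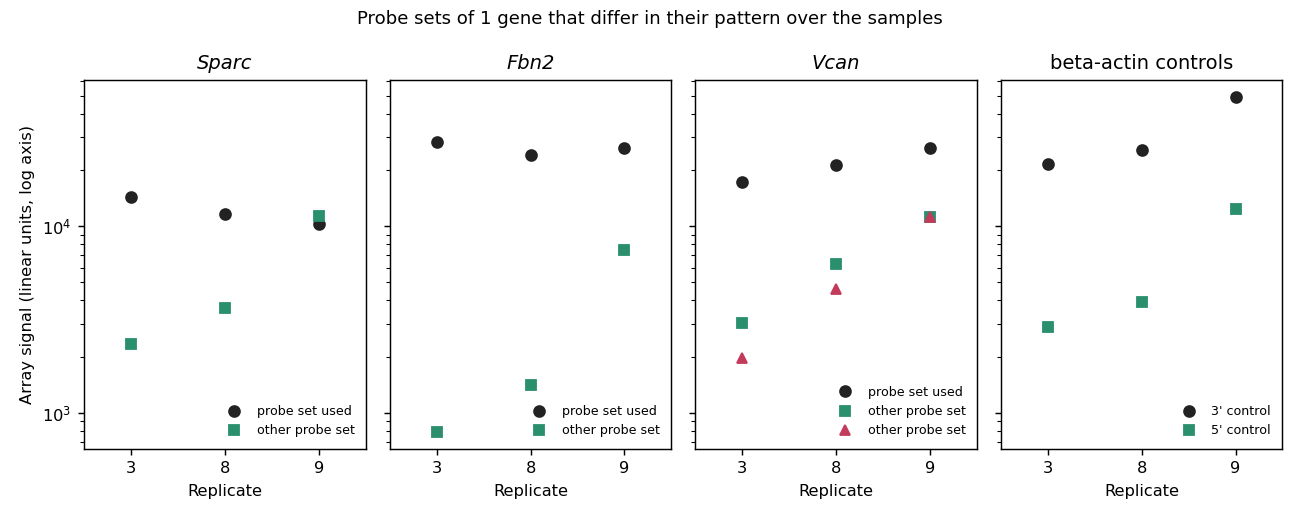
Array signal (linear units on a log axis) in replicates 3, 8 and 9 for the probe sets of Sparc, Fbn2 and Vcan above background, and for the beta-actin controls at both ends of the transcript. The probe sets used for Fbn2 lie between 24034 and 28370 while those of the other one lie between 789 and 7456, and the 5′ control of beta-actin stands highest in replicate 9 (2868, 3932 and 12348).

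Of the 28 members above background with more than 1 probe set, 16 had a probe set that was not above background on all arrays. In 17 members at least 2 probe sets were above background, and these named the same highest sample for 9: Fbln1, Has2, Ltbp3, Matn2, Mfap2, Mfap5, Ogn, Thbs2 and Vcan. For 8 they did not: Bgn, Fbn2, Fmod, Lox, Pcolce, Sparc, Tgfbi and Thbs1. The full order of the 3 samples was the same in 5, Ltbp3, Mfap2, Mfap5, Ogn and Vcan.

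Markers of cell types that may share the dissection differed between samples too. Of the labelled tissue, 6 of 8 smooth muscle markers were above background (summed signal 40906, 36217 and 40665), 5 of 6 of ureteric mesenchyme (29336, 51950 and 38192) and 5 of 8 of urothelium (32732, 41203 and 28915). The smooth muscle genes Cnn1 and Lmod1 exceeded background on 1 array each. Of the uroplakin genes, Upk1a exceeded it on 2 arrays, Upk3a on 1 and Upk2 on none. The urothelium genes Krt8 (20340, 23741 and 17646) and Epcam (2586, 8308 and 2414) were highest in replicate 8. Upk1b and Krt5 were highest in replicate 3 and Trp63 in replicate 9. Most of the smooth muscle sum came from Acta2 (32410, 27441 and 35288), while Myh11 (1647, 1620 and 465) and Tagln (1928, 1654 and 613) were lowest in replicate 9, as were Cnn1 and Lmod1. Actg2 (2841, 3540 and 2250) was lowest in replicate 9 too. Des (455, 464 and 707) was instead highest in replicate 9, and Smtn (1071, 833 and 1053) was lowest in replicate 8. The mesenchyme sum came mainly from Tbx18 (7828, 20079 and 7442) and Pdgfra (11582, 19534 and 15015), both highest in replicate 8, whereas Pdgfrb (5111, 4653 and 9705) and Osr1 (249, 97 and 502) were lowest in replicate 8 and highest in replicate 9. Outside the ureter wall, all 6 hepatocyte markers (200924, 112746 and 160015), all 6 erythroid markers (158293, 77305 and 118574) and 7 of 8 skeletal muscle markers (73353, 62976 and 60873) were above background, with Myf5 the exception in muscle. These sums were highest in replicate 3, as was each hepatocyte marker. The erythroid genes Hbb-y and Klf1 and the muscle gene Myh3, however, were highest in replicate 9. The muscle genes Myog and Tnnt3 were highest in replicate 8.

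For tendon and bone, 3 of 5 markers were above background (3427, 3319 and 2099), with Ibsp and Sp7 the exceptions. Of the 3 above background, Mkx (1912, 1521 and 822) was lowest in replicate 9, and Scx (326, 434 and 389) was not. Endothelial markers were above background for 5 of 7 (11393, 10604 and 8580), macrophage markers for 5 of 7 (21137, 12145 and 27541), mesothelial markers for 4 of 6 (17320, 13203 and 12162), renal stroma markers for 4 of 4 (25839, 28967 and 22430) and neuron and glia markers for 3 of 5 (4498, 9794 and 12834). Of the macrophage markers above background, Csf1r (8111, 5183 and 17559) and Cx3cr1 were highest in replicate 9. Adgre1, Mrc1 and Lyz2 were highest in replicate 3. Kdr (1049, 1442 and 2950) of the endothelium and Upk3b (2200, 1126 and 2437) of the mesothelium were highest in replicate 9, unlike their sums. Foxd1 (13036, 10228 and 10189) of the renal stroma was highest in replicate 3. Emcn of the endothelium and Elavl4 of neurons were highest in replicate 8. The other markers above background in these 4 lists were highest in the same sample as their sum. Pecam1 and Tie1 of the endothelium and Msln of the mesothelium exceeded background on 1 array each and the macrophage gene Aif1 on none. The part of any of these cell types in the members' signals was not tested.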

How the data were processed

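The data are 3 arrays of 1 group. The deposited values are linear intensities, 1 per probe set and array, made by the authors with GCOS per the submitters' processing notes, with version and settings not given in the sources used here. The 2% trimmed mean was 1500 on each array, so a level is relative to the rest of its array; median signals were 234, 198 and 273.

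Of 45101 probe sets, 34958 had 1 gene symbol in the platform annotation, 932 had several and 9211 are not named here. Of the first, 34754 matched the RefSeq table of GRCm38.p6 by Entrez ID, and 0 changed symbol. That table gave gene order, and its companion the promoters. Values were analysed as log2(signal + 1) with Python 3.11.15, numpy 2.4.6 and pandas 2.3.3. Pairs of arrays had a Pearson's r of 0.936 to 0.950 across genes above background; genes do not count as independent replicates.

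The reference list held 60 genes, 53 measured, and Cbln1 was itself above background on all arrays. All members are named, and in other matrix lists up to 4 genes with the highest means above background and up to 3 below it on every array. Genes named outside that rule, such as Kera, Epyc, Hapln3, Comp, Tgfb2, Tgfb3 and single markers, were chosen after their values were seen. The members and lists were chosen with earlier results of these data known. The calculation was tested on simulated data.

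The counts of members above background and with a range of at least 1, their median range and deviations, and, where it applied, the mean signals were recomputed with quantile normalization, with pseudocounts of 16 or 64, with gene levels averaged over probe sets, without _x_at and _s_at probe sets, with the background limit at the 90th or 99th percentile, with presence on at least 2 arrays, with no filter, and without each replicate. Orders over samples, other lists, probe set agreement and promoters were not recomputed. The number of arrays limits precision.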

Additional observations from a re-analysis of the deposited data

How the results depend on the processing

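The count of members above background was 37 in each alternative except the 99th percentile as background (34, losing Thbs1, Aspn and Ltbp4) and gene levels averaged over probe sets (28, against 47.3% of all genes). Members with a range of at least 1 numbered 9 of 28 with averaged probe sets, against 16.4% of all genes, and from 1 to 9 of 37 when a replicate was left out, which compares 2 arrays in place of 3. The median range was 0.79 to 0.92 with all replicates and 0.40 to 0.52 with one left out. With a replicate left out, the median deviation in replicate 3 was 0.023 to 0.12, and that in replicate 9 was -0.023 to 0.080. Mean signals moved by more than 1 SD for 22 of 42 genes with averaged probe sets, for 4 without _x_at and _s_at probe sets, and for 0 with quantile normalization. Leaving out 1 of 3 samples cannot move a mean by 1 SD. It took the mean of Tnc from 1146 to 661 without replicate 9, and without replicate 3 that of Tnxb from 236 to 133 and that of Acan from 333 to 216. The cause of these changes was not tested.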
